A study of Homo sapiens with 8 samples.

Results

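The genes described here are 46 members of the WNT pathway, namely 16 WNT ligands, 10 Frizzled receptors, 5 co-receptors, the ligand export genes PORCN and WLS, 5 antagonists and turnover factors, 4 genes of the beta-catenin destruction complex (beta-catenin itself included) and the 4 TCF/LEF factors. They were taken by symbol from the 60646 genes of the deposited count table, and 46 of 46 were found. RNA-seq was made from 4 DOT1L knockout and 4 wild-type samples of the breast cancer line MDA-MB-231, an established human line of the triple-negative, mesenchymal-like type. RNA was depleted of ribosomal RNA and made into libraries with a stranded kit. The knockout cells, written DOT1L/+ in the labels, were made with a guide RNA against exon 1 of the gene, and both groups were grown in DMEM with 5% FBS, seeded at about 50% confluency and harvested 1 day later. The labels do not give the edit, the number of edited alleles, the number of clones, or whether the samples of a group were separate cultures. DOT1L methylates lysine 79 of histone H3.

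WNT proteins are secreted signals that carry a lipid added by PORCN and reach the cell surface with WLS. In the canonical branch a WNT binds a Frizzled receptor together with LRP5 or LRP6, which stops the destruction complex of AXIN and APC from degrading beta-catenin (CTNNB1), and beta-catenin then enters the nucleus and works with TCF/LEF factors. Other WNTs, WNT5A foremost, act mainly without beta-catenin through receptors such as ROR1, ROR2 and RYK. AXIN2, LEF1, TCF7, RNF43, ZNRF3 and DKK1 are themselves induced by beta-catenin in many tissues and so form feedback loops.

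The samples held 46713622 to 49308625 counts in the knockout and 40103408 to 50031412 in the wild-type. DOT1L stood at 78.1 to 92.3 CPM (counts per 1e6 counts of the scaled library) in the knockout and at 101 to 118 CPM in the wild-type, a log2 change of -0.37 (SE 0.06, edgeR quasi-likelihood adjusted p = 2.83e-05), and reads of an edited allele are included in that count. Of the line's usual markers, VIM averaged 3872 and 2941 CPM in knockout and wild-type, AXL 1003 and 1237 CPM and MSN 893 and 931 CPM. CD44 averaged 775 and 794 CPM, CAV1 521 and 495 CPM, EGFR 488 and 637 CPM and SNAI2 31.4 and 30.8 CPM. VIM passed as higher in the knockout (log2 change 0.40, adjusted p = 8.82e-06). AXL (-0.30, adjusted p = 1.66e-05) and EGFR (-0.39, adjusted p = 8.94e-07) passed as lower. The hormone receptors ESR1 (0.538 and 0.262 CPM) and PGR (0.0933 and 0.0282 CPM) were low in both groups. ESR1 passed as higher in the knockout (log2 change 1.002, adjusted p = 0.0333). Of the epithelial markers taken as low in this line, CDH1 averaged 0.212 and 0.0059 CPM and EPCAM 6.74 and 6.62 CPM, but KRT8 was high in both groups and higher in the knockout, at 540.4 and 310 CPM (log2 change 0.80, adjusted p = 2.70e-06). Of 10 markers of blood, fibroblasts, endothelium and liver, COL1A1 (18.7 and 10.2 CPM in knockout and wild-type) and VWF (0.718 and 0.182 CPM) passed as higher, and the 9 other than COL1A1 averaged at most 0.737 CPM, with CD3E, DCN, LUM and ALB below 0.05 CPM in both groups. The part of these changes in the results below was not tested. In bulk samples such as these, fewer cells that express a gene and less RNA of it per cell cannot be told apart.

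Across the WNT members the knockout differed from the wild-type in both directions. Of 46 members, 34 had enough counts to be tested, and 24 of these passed an adjusted p below 0.05, 14 higher and 10 lower in the knockout. That is 70.6% of the tested members, where 47.6% of all 19877 tested genes passed (23.9% higher, 23.6% lower). The members were chosen with earlier results of these data known, so shares set beside all genes are descriptive. Restricted to a mean log2 CPM of 1 or more, 21 of 31 members (67.7%) and 55.1% of all genes passed. The groups did not overlap for the same number of members, 24 of 34, against 43.4% of all tested genes. A change of at least 2-fold was found for WNT10A, WNT5A, WNT9A and ROR2, which rose, and for LRP5 and LEF1, which fell, which is 17.6% of tested members against 9.36% of all tested genes (6.72% higher and 2.64% lower). The median log2 change was 0.02 over the tested members and 0.00 over all tested genes. With upper-quartile scaling or with library totals alone, 15 members were higher and 7 lower, since APC, FZD3 and RYK no longer passed as lower and FZD5 passed as higher.

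**Figure D1:**
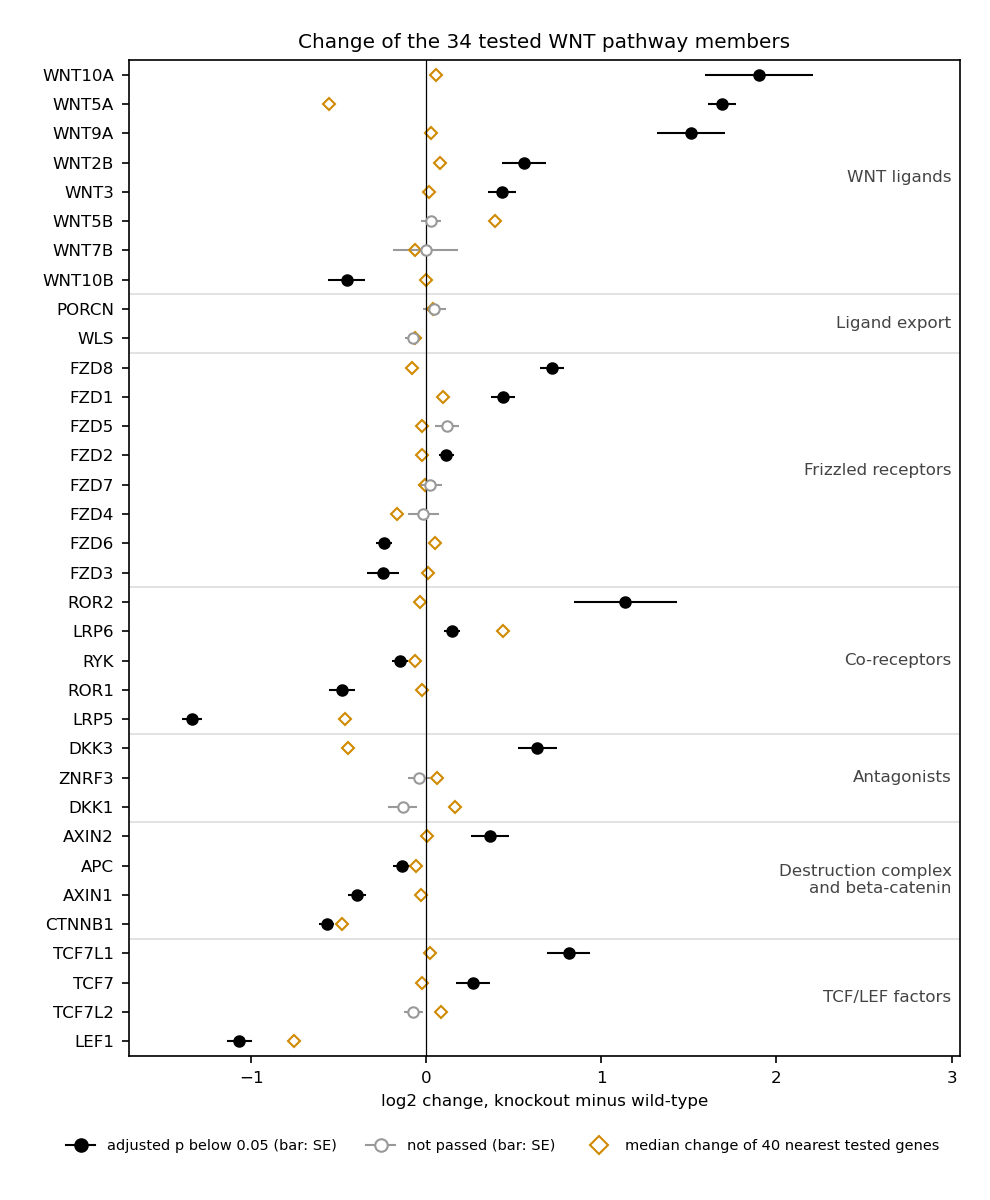
Log2 change (knockout minus wild-type, horizontal axis) of each tested member by role, with its standard error. Filled points passed an adjusted p below 0.05, and open diamonds give the median change of the 40 nearest tested genes on the chromosome. WNT10A (1.90), WNT5A (1.69) and WNT9A (1.51) lie farthest to the right, and LRP5 (-1.34) and LEF1 (-1.07) farthest to the left.

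Some members lie in stretches of the genome whose genes moved together. The change of each was therefore also set against the median change of its 40 nearest tested neighbours. That median was entered as a fixed value, so p-values relative to neighbours leave out the neighbours' own spread. For 7 members that median was 0.39 or more in size on the log2 scale. It was -0.76 around LEF1 on chromosome 4, -0.56 around WNT5A and -0.48 around CTNNB1 on chromosome 3, and -0.47 around LRP5 and -0.45 around DKK3 on chromosome 11. On chromosome 12 it was 0.44 around LRP6 and 0.39 around WNT5B. For the other 27 tested members it ran from -0.17 (FZD4) to 0.16 (DKK1). Relative to neighbours, 13 members were higher and 11 lower, with 20 of the 24 calls made without that adjustment retained in direction and threshold (44.6% of all genes passed relative to neighbours).

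Of 16 WNT ligand genes, 8 were tested, of which 5 rose, 1 fell and 2 did not pass, with a median log2 change of 0.50 (all tested genes, 23.9% higher and 23.6% lower, median 0.00). WNT5A (ENSG00000114251, chromosome 3, 55465715 to 55490539, minus strand, GRCh38), the typical ligand of the branch without beta-catenin, had 20.7, 21.2, 21.1 and 25.5 CPM in knockout replicates 1, 2, 3 and 5, against 6.30, 6.96, 6.97 and 7.26 CPM in wild-type replicates 1, 2, 3 and 5. Every knockout sample was above every wild-type sample, knockout replicate 5 being the highest. The log2 change was 1.69 (SE 0.08, adjusted p = 4.86e-13), a 3.22-fold rise, while the neighbouring genes were lower, and relative to them it was 2.25. WNT9A (ENSG00000143816, chromosome 1, 227918656 to 227947898, minus strand), a canonical ligand, had 2.35, 2.86, 2.65 and 2.02 CPM in the knockout, against 1.203, 0.977, 0.634 and 0.676 CPM in the wild-type (log2 change 1.51, SE 0.19, adjusted p = 1.33e-06). WNT10A, another canonical ligand, was near the limit of detection in both groups, with 0.490, 0.526, 0.690 and 0.535 CPM in the knockout against 0.118, 0.125, 0.190 and 0.153 CPM in the wild-type (log2 change 1.90, SE 0.31, adjusted p = 2.73e-05). These rest on 109 counts over the knockout group and 26 over the wild-type group.

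Promoter windows of the WNT genes with the largest rises above 1 CPM are shown so that their CG content, which differs widely, can be seen. They come from RefSeq on GRCh38.p14 and run 5′ to 3′ on the gene's strand, from 250 bases before to 50 after the listed start, with CG dinucleotides, the sites of DNA methylation, in capitals. WNT5A is on the minus strand at chr3:55487257-55487556, and this is the first of 2 windows RefSeq gives for it. Its listed start lies 3233 bases inside the gene as GENCODE 29 draws it. WNT9A is on the minus strand at chr1:227947883-227948182.
WNT5A: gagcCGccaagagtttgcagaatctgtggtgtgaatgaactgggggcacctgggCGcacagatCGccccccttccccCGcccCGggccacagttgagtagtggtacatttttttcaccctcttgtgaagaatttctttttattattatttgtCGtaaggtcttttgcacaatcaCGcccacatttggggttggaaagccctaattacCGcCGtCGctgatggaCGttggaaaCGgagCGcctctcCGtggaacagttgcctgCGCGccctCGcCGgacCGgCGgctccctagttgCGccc
WNT9A: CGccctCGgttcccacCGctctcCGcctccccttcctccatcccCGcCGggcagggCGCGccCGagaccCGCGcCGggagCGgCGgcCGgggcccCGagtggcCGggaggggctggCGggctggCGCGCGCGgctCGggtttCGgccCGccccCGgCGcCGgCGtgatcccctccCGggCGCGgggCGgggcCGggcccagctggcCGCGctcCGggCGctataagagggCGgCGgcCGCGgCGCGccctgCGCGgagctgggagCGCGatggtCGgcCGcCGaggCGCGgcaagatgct
The WNT5A window holds 21 CG dinucleotides at 56.3% G + C and the WNT9A window 53 at 83.0%, against a median of 14 at 58.7% over 35116 RefSeq promoter windows. Over the 43 windows of WNT members the median was 28 at 68%, so a high CG count was not particular to genes that rose. Neither holds the E-box CACGTG bound by MYC and its relatives, the TCF/LEF core CTTTGAA or CTTTGAT, or TATAAA, searched on both strands without overlap between these motifs.

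Changes of the other tested ligands were smaller. WNT2B had 7.63, 6.65, 7.002 and 6.23 CPM in the knockout against 5.50, 5.31, 3.34 and 4.60 CPM in the wild-type (log2 change 0.56, SE 0.13, adjusted p = 0.00121), and all knockout samples were above all wild-type samples. Exons of WNT2B share 2661 bases with ST7L on the opposite strand, and whether the counting used strand is not given in the sources used here. Reads of the pair could have been mixed if it did not. ST7L itself averaged 51.2 and 49.3 CPM in knockout and wild-type, a log2 change of 0.06 (adjusted p = 0.360). WNT3 averaged 15.5 ± 1.07 CPM in the knockout and 11.5 ± 1.11 CPM in the wild-type (SD, n = 4 each, log2 change 0.43, edgeR adjusted p = 0.000116). WNT10B was the ligand that fell, with 3.75 ± 0.253 and 5.13 ± 0.372 CPM (SD, n = 4 each, log2 change -0.46, edgeR adjusted p = 0.00109).

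WNT7B and WNT5B did not pass. WNT7B averaged 21.1 ± 2.80 CPM in the knockout and 21.1 ± 4.82 CPM in the wild-type (SD, n = 4 each), with wild-type replicate 3 at 14.1 CPM and the other wild-type samples at 22.3 to 24.7 CPM. WNT5B, the close relative of WNT5A, averaged 26.1 ± 0.918 and 25.6 ± 1.496 CPM (SD, n = 4 each, log2 change 0.03, SE 0.06). Its neighbours were higher in the knockout, and relative to them WNT5B stood at -0.37 (adjusted p = 2.45e-05).

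WNT5A made up a larger share of the ligand mix in the knockout. Levels between genes were compared as CPM per kilobase of annotated exon, which takes the union of exons of all transcripts as the length and so can understate genes with many isoforms. On that scale WNT5B led in both groups, at 6.05 ± 0.213 in the knockout and 5.95 ± 0.348 in the wild-type, followed by WNT7B (4.17 and 4.19) and WNT3 (3.58 and 2.65). WNT5A stood at 2.99 ± 0.305 in the knockout, above WNT10B (1.42 ± 0.0962), and at 0.929 ± 0.0549 in the wild-type, below WNT10B (1.95 ± 0.142). Its part was 14.1% to 17.1% of the summed ligand level in the knockout samples, against 5.0008% to 6.35% in the wild-type samples. The sum over the 16 ligands was 19.7 ± 0.414 CPM per kilobase in the knockout and 16.4 ± 1.03 in the wild-type (SD, n = 4 each), and the groups did not overlap.

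The other 8 ligands were at or near 0. WNT6 had no count in any sample. WNT1 was at 0 in every knockout sample and had 2 counts in wild-type replicate 1. WNT16 had 1 count each in knockout replicates 2 and 3 and 0 in the wild-type. WNT7A had 2, 2, 2 and 1 counts in the knockout and 0 in every wild-type sample. That is 2.10-fold a floor of 3 counts over the wild-type group, a ratio that is not a lower bound. WNT2, WNT3A, WNT4 and WNT11 had 3, 4, 4 and 40 counts over the knockout group and 1, 6, 3 and 18 over the wild-type group. None of these 8 passed when the filter on low counts was lifted, the smallest adjusted p being 0.0521 for WNT7A. Several of the lowest ligands sit beside an expressed one. WNT1 lies 6689 bases from WNT10B on chromosome 12, WNT6 lies 6129 bases from WNT10A on chromosome 2, and WNT3A lies 59152 bases from WNT9A on chromosome 1, so that WNT9A and WNT10A rose while their neighbouring family members stayed at 4 and 0 counts over the knockout group.

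Neither gene of ligand export passed. PORCN averaged 17.3 ± 0.555 CPM in the knockout and 16.8 ± 1.01 CPM in the wild-type (SD, n = 4 each, log2 change 0.05, SE 0.06, edgeR adjusted p = 0.594). WLS averaged 64.7 ± 1.37 and 68.1 ± 3.31 CPM (SD, n = 4 each, log2 change -0.07, SE 0.05, edgeR adjusted p = 0.214).

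**Figure D2:**
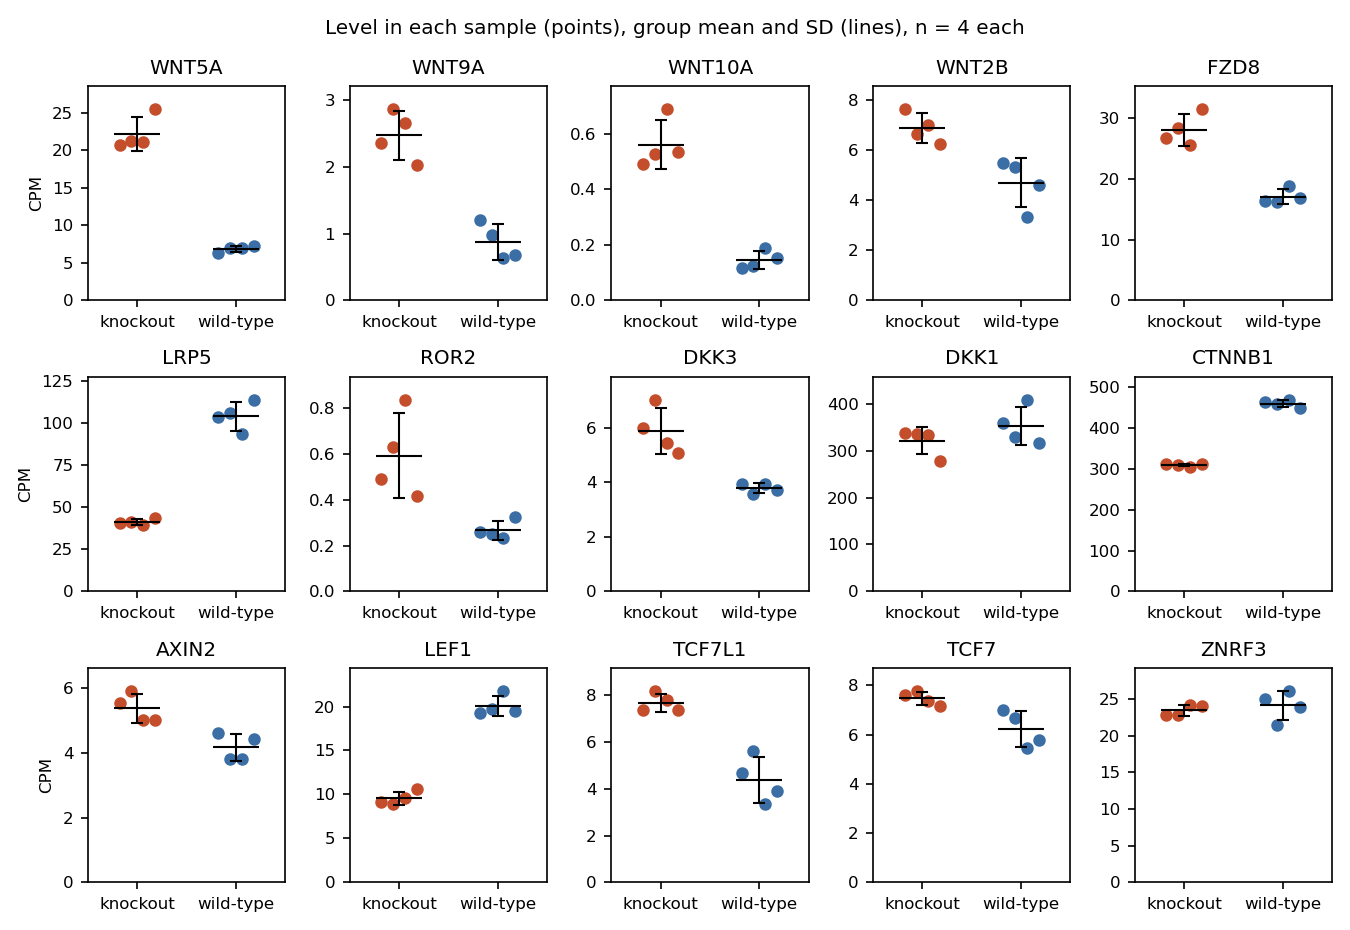
Level in CPM (vertical axis, from 0) of 15 members in the 4 knockout and the 4 wild-type samples, as points for replicates 1, 2, 3 and 5 from left to right, with the group mean and SD. The groups are apart for WNT5A, LRP5, CTNNB1 and LEF1, and they overlap for DKK1 and ZNRF3.

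Of the 10 Frizzled receptors, 8 were tested. FZD8, FZD1 and FZD2 rose and FZD6 and FZD3 fell, where 23.9% of all tested genes were higher and 23.6% lower. FZD4 (log2 change -0.02), FZD5 (0.12) and FZD7 (0.02) did not pass. FZD8 changed most. It had 26.8, 28.4, 25.6 and 31.5 CPM in the knockout, against 16.4, 16.2, 18.9 and 16.8 CPM in the wild-type (log2 change 0.72, SE 0.07, adjusted p = 3.04e-08), and no samples of the groups overlapped. FZD1 averaged 32.4 ± 0.660 and 23.9 ± 2.69 CPM in knockout and wild-type (SD, n = 4 each, log2 change 0.44, edgeR adjusted p = 1.60e-05). FZD6 averaged 91.9 ± 4.79 and 109 ± 3.44 CPM (log2 change -0.24, edgeR adjusted p = 0.000237).

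The calls of FZD2 and FZD3 were marginal. FZD2 averaged 110.2 ± 3.92 CPM in the knockout and 102 ± 3.16 CPM in the wild-type (SD, n = 4 each, log2 change 0.11, edgeR adjusted p = 0.0412), and without any 1 of knockout replicates 1, 2 and 3 or of the 4 wild-type replicates the adjusted p was 0.0610 to 0.116. FZD3 averaged 15.4 ± 2.40 and 18.3 ± 0.959 CPM (log2 change -0.25, edgeR adjusted p = 0.0366), with knockout replicate 1 lowest at 11.9 CPM. Without that replicate the log2 change was -0.14 (adjusted p = 0.103), and without wild-type replicate 2, 3 or 5 the adjusted p was 0.0717, 0.0572 and 0.0909.

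Per kilobase of exon, FZD2 was the most abundant Frizzled receptor in both groups, at 52.2 ± 1.86 in the knockout and 48.2 ± 1.49 in the wild-type, with FZD6 next at 22.6 ± 1.18 and 26.7 ± 0.846. FZD6 supplied 20.8% to 22.4% of the summed Frizzled level in knockout samples and 25.2% to 27.5% in wild-type samples. FZD8 supplied 5.99% to 7.62% in knockout samples and 3.88% to 4.82% in wild-type samples. The sum itself was 105 ± 2.09 CPM per kilobase in the knockout and 101 ± 3.09 in the wild-type, with overlapping groups. FZD9 had no count in any sample, and FZD10 had 2, 0, 3 and 1 counts in the knockout and 0 in every wild-type sample. That is 1.80-fold a floor of 3 counts over the wild-type group, and FZD10 did not pass with no filter on low counts (adjusted p = 0.0751). Exons of FZD4 share 1399 bases with PRSS23 on the opposite strand, so its level is uncertain.

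All 5 co-receptors passed, LRP6 and ROR2 upward and LRP5, ROR1 and RYK downward, where 47.6% of all tested genes passed. LRP5 (ENSG00000162337, chromosome 11, 68312609 to 68449275, plus strand), which pairs with Frizzled receptors in canonical signalling, had the largest fall of any member. It stood at 40.6, 41.1, 39.4 and 43.5 CPM in knockout replicates 1, 2, 3 and 5, against 103, 106, 93.2 and 114 CPM in the wild-type ones, and no knockout sample came near a wild-type one. The log2 change was -1.34 (SE 0.06, adjusted p = 6.22e-14). Its neighbours were also lower, and relative to them the log2 change was -0.87 (adjusted p = 8.42e-11). Its partner gene LRP6 averaged 115 ± 4.87 CPM in the knockout and 104 ± 4.94 CPM in the wild-type (SD, n = 4 each, log2 change 0.15, edgeR adjusted p = 0.0156). Relative to its neighbours, which were higher, LRP6 was lower in the knockout (-0.29, adjusted p = 4.10e-05), and its call was lost without knockout replicate 3 (adjusted p = 0.0776) or wild-type replicate 1 (0.0504).

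The order of these paralogues was reversed. Per kilobase LRP5 stood at 6.67 ± 0.280 and LRP6 at 11.2 ± 0.471 in the knockout, against 16.9 ± 1.37 and 10.1 ± 0.478 in the wild-type. The ratio of LRP5 to LRP6 per sample was 0.546 to 0.623 in the knockout and 1.59 to 1.73 in the wild-type. The promoter window of LRP5 is shown as that of the member with the largest fall, at chr11:68312341-68312640 on the plus strand of GRCh38.p14 (RefSeq), with CG dinucleotides in capitals.
LRP5: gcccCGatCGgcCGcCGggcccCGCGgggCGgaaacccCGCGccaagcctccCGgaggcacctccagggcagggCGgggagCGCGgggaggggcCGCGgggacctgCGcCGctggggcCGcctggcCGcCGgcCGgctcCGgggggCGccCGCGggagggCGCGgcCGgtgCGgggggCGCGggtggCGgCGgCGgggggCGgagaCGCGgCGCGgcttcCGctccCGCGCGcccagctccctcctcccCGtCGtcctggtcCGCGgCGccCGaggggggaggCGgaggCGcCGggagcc
It holds 52 CG dinucleotides at 86.7% G + C, and it holds none of the motifs searched above.

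The receptor tyrosine kinase-like genes ROR1 and ROR2, receptors for WNT5A, moved in opposite directions. ROR1 averaged 20.4 ± 2.61 CPM in the knockout and 28.5 ± 1.28 CPM in the wild-type (SD, n = 4 each, log2 change -0.48, edgeR adjusted p = 2.50e-05). ROR2 had 0.490, 0.632, 0.836 and 0.416 CPM in the knockout, against 0.260, 0.250, 0.232 and 0.327 CPM in the wild-type (log2 change 1.14, SE 0.29, adjusted p = 0.00295), on 115 and 47 counts over the groups. The groups did not overlap, and ROR1 remained far above ROR2 per kilobase, by 23.6-fold to 39.4-fold in knockout samples and 79.0-fold to 108-fold in wild-type samples. RYK averaged 70.3 ± 2.04 and 78.1 ± 1.81 CPM (SD, n = 4 each, log2 change -0.15, edgeR adjusted p = 0.00734), and relative to its neighbours it did not pass (-0.08, adjusted p = 0.131).

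Among the antagonists, DKK3 rose and DKK1 and ZNRF3 did not pass. DKK1 (ENSG00000107984, chromosome 10, 52314296 to 52318042, plus strand) blocks LRP5 and LRP6 from outside the cell, and per kilobase it was the most abundant of all 46 members, at 146 ± 13.1 in the knockout and 160 ± 18.5 in the wild-type. It had 337, 335, 334 and 278 CPM in the knockout, against 358, 328, 408 and 317 CPM in the wild-type, and the groups overlapped. The log2 change was -0.14 (SE 0.08, adjusted p = 0.196). With the replicate number as a block it passed as lower (adjusted p = 0.0178), and so it did relative to its neighbours (-0.30, adjusted p = 0.00950) and with no filter on low counts (adjusted p = 0.0120). Exons of DKK1 share 212 bases with PRKG1-AS1 on the opposite strand, a gene at 2.96 and 3.98 CPM in knockout and wild-type.

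The DKK1 promoter window is shown because it alone among the windows of the 33 members that RefSeq's table holds carries a TCF/LEF core. It lies at chr10:52314031-52314330 on the plus strand of GRCh38.p14, and the capitals mark CTTTGAA and TATAAA.
DKK1: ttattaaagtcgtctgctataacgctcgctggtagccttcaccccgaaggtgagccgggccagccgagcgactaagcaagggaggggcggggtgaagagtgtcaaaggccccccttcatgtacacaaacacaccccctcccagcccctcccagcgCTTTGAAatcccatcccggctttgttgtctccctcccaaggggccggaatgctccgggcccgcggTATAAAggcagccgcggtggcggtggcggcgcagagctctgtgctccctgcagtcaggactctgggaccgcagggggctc
Of 35116 promoter windows 4.43% hold CTTTGAA, 2.62% hold CTTTGAT and 11.5% hold TATAAA. The E-box CACGTG, in 7.26% of all windows, was found in that of APC among the members. TATAAA was also found for FZD8, TCF7 and WNT5B. A match of letters is not a measured binding site.

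DKK3, a divergent relative of DKK1, had 5.98, 7.01, 5.43 and 5.06 CPM in the knockout, against 3.92, 3.56, 3.93 and 3.71 CPM in the wild-type (log2 change 0.63, SE 0.11, adjusted p = 7.90e-05). Its neighbours were lower, and relative to them its rise was 1.08 (adjusted p = 1.18e-07). ZNRF3, a ubiquitin ligase that removes Frizzled receptors from the surface, had 22.9, 22.8, 24.2 and 24.01 CPM in the knockout and 25.1, 21.4, 26.1 and 23.98 CPM in the wild-type (log2 change -0.04, SE 0.06, adjusted p = 0.625).

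RNF43 and SFRP1 were too low to be tested with the filter. RNF43, the sister ligase of ZNRF3, had 2, 5, 1 and 8 counts in knockout replicates 1, 2, 3 and 5 and 0, 1, 0 and 0 in the wild-type ones, a ratio of 14.4 between group totals (95% counting interval 2.24 to 605). Of its 7505 exon bases 4326 are shared with a second annotated gene on the same strand, so reads may have been lost or split there. SFRP1, a secreted protein that binds WNTs, had 2, 5, 2 and 6 counts in the knockout and none in the wild-type. That is 4.51-fold a floor of 3 counts over the wild-type group. With no filter on low counts RNF43 (adjusted p = 0.0150) and SFRP1 (adjusted p = 0.00303) both passed as higher. The interval covers counting error only. Ratios to a floor take the knockout count as it stands and are not lower bounds on the fold.

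In the destruction complex, AXIN1, APC and CTNNB1 were lower and AXIN2 was higher in the knockout. Among all tested genes 23.6% were lower and 23.9% higher. CTNNB1 (ENSG00000168036, chromosome 3, 41194741 to 41260096, plus strand), which encodes beta-catenin, had 312, 309.8, 305 and 311 CPM in the knockout, against 465, 457, 468 and 448 CPM in the wild-type. The groups were far apart, and the log2 change was -0.57 (SE 0.04, adjusted p = 6.17e-10). Its neighbours were lower by nearly as much (-0.48), and relative to them CTNNB1 did not pass (-0.09, adjusted p = 0.101). AXIN1, the scaffold of the complex, averaged 36.0 ± 1.04 CPM in the knockout and 47.3 ± 1.76 CPM in the wild-type (SD, n = 4 each, log2 change -0.40, edgeR adjusted p = 8.95e-07), and its neighbours stood at -0.03.

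AXIN2, the inducible counterpart of AXIN1 and a common readout of beta-catenin activity, had 5.55, 5.92, 5.02 and 5.02 CPM in the knockout, against 4.62, 3.81, 3.83 and 4.45 CPM in the wild-type (log2 change 0.36, SE 0.11, adjusted p = 0.00783). The lowest knockout sample was above the highest wild-type sample by less than the SD of either group, 0.440 and 0.422 CPM. Tested against a fold of 1.2 (glmTreat), AXIN2 did not pass (adjusted p = 0.206). Of its 5226 exon bases 1316 are shared with a second annotated gene on the same strand, so reads may have been lost or split there. APC averaged 103 ± 5.90 and 114 ± 2.97 CPM in knockout and wild-type (SD, n = 4 each, log2 change -0.14, edgeR adjusted p = 0.0196). Relative to its neighbours APC did not pass (-0.08, adjusted p = 0.168), and its call was lost without knockout replicate 1 (adjusted p = 0.0681) or 2 (0.0685) or wild-type replicate 2 (0.0535).

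**Figure D3:**
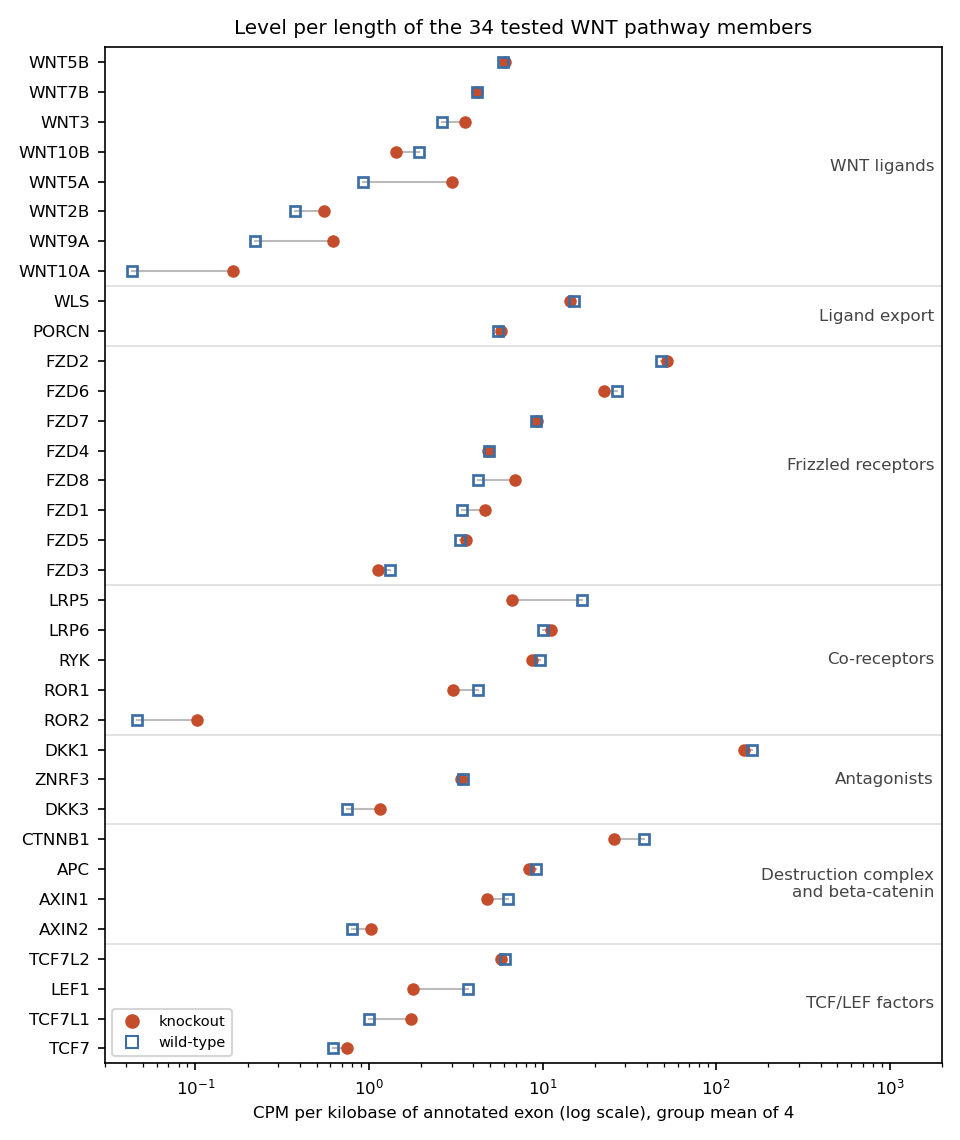
Mean level of each tested member in CPM per kilobase of annotated exon (horizontal axis, log scale) in the knockout (filled circles) and the wild-type (open squares), n = 4 each, by role and in order of the wild-type level. DKK1 lies highest at 146 and 160, LRP5 falls below LRP6 in the knockout, and LEF1 comes level with TCF7L1.

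Of the 4 TCF/LEF factors, which bind DNA for beta-catenin, LEF1 fell, TCF7L1 and TCF7 rose and TCF7L2 did not pass. Among all tested genes 23.9% were higher and 23.6% lower. LEF1 (ENSG00000138795, chromosome 4, 108047545 to 108168956, minus strand) had 9.14, 8.93, 9.57 and 10.6 CPM in the knockout, against 19.2, 19.7, 21.8 and 19.5 CPM in the wild-type, with no overlap (log2 change -1.07, SE 0.07, adjusted p = 1.21e-10). The neighbours of LEF1 had the largest median fall around any member, and relative to them its log2 change was -0.31 (adjusted p = 0.00151). TCF7L1, which acts mostly as a repressor, had 7.39, 8.19, 7.80 and 7.36 CPM in the knockout, against 4.67, 5.64, 3.36 and 3.90 CPM in the wild-type (log2 change 0.81, SE 0.12, adjusted p = 1.60e-05), and its neighbours stood at 0.02.

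TCF7 had 7.59, 7.77, 7.38 and 7.16 CPM in the knockout, against 7.01, 6.66, 5.45 and 5.78 CPM in the wild-type (log2 change 0.27, SE 0.10, adjusted p = 0.0257). The highest wild-type sample reached almost to the lowest knockout sample, and the call was lost without knockout replicate 1 (adjusted p = 0.0534) or 2 (0.0725) or wild-type replicate 3 (0.0661) or 5 (0.0766). Exons of TCF7 share 210 bases with SKP1 on the opposite strand, a gene at 189 and 211 CPM in knockout and wild-type. TCF7L2 averaged 39.1 ± 2.59 and 41.1 ± 1.81 CPM (SD, n = 4 each, log2 change -0.07, edgeR adjusted p = 0.291) and passed as lower relative to its neighbours (-0.16, adjusted p = 0.0237).

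Per kilobase TCF7L2 was the most abundant of the 4 in both groups, at 5.80 ± 0.385 in the knockout and 6.11 ± 0.269 in the wild-type. LEF1 and TCF7L1 stood at 1.78 ± 0.138 and 1.74 ± 0.0890 in the knockout, against 3.74 ± 0.217 and 0.995 ± 0.224 in the wild-type. The ratio of LEF1 to TCF7L1 was 0.897 to 1.19 in the knockout samples and 2.88 to 5.33 in the wild-type samples, so the wild-type order of these factors was no longer seen beyond the spread of the knockout samples.

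Other genes of the pathway, in lists outside the 46 members, also moved both ways. These lists too were chosen with earlier results of these data known. Of 86 tested genes, 29 were higher, 31 lower and 26 did not pass, with a median log2 change of -0.04, where 23.9% of all tested genes were higher and 23.6% lower. Around the Frizzled ligases, the R-spondins, their LGR receptors and the KREMEN co-receptors of DKK1 had 5 tested members of 9. RSPO3, a secreted amplifier of WNT signals, had 0.572, 0.463, 0.481 and 1.19 CPM in the knockout, against 0.0236, 0.175, 0.0634 and 0.0654 CPM in the wild-type (log2 change 3.04, SE 0.47, adjusted p = 2.13e-05). That change rests on 133 counts over the knockout group and 14 over the wild-type group, near the limit of detection. LGR5, an R-spondin receptor and beta-catenin target, had 2.71, 3.01, 2.84 and 2.72 CPM in the knockout, against 0.543, 0.776, 0.719 and 0.610 CPM in the wild-type (log2 change 2.09, SE 0.16, adjusted p = 7.59e-10). LGR4, its more abundant relative, averaged 40.02 ± 2.21 and 63.0 ± 6.62 CPM (SD, n = 4 each, log2 change -0.65, edgeR adjusted p = 1.19e-07). KREMEN2 (0.87), named after its value was seen, also rose, and KREMEN1 (-0.10) did not pass.

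Of 19 tested beta-catenin targets, 9 rose, 6 fell and 4 did not pass, with a median log2 change of 0.14 (all tested genes, 23.9% higher and 23.6% lower). NKD1, a feedback inhibitor induced by WNT signals, had 6.31, 6.34, 6.08 and 6.13 CPM in the knockout, against 2.52, 2.15, 2.24 and 2.09 CPM in the wild-type (log2 change 1.46, SE 0.11, adjusted p = 3.37e-10). CCND1, which encodes cyclin D1, averaged 495 ± 10.1 and 799.8 ± 23.3 CPM in knockout and wild-type (SD, n = 4 each, log2 change -0.69, edgeR adjusted p = 7.83e-11), or -0.23 relative to its neighbours. The T-box factor TBX3 had 2 counts over the knockout group and 899 over the wild-type group, a ratio of wild-type to knockout of 499 (95% counting interval 138 to 4125). Among others named after their values were seen, CEMIP, a hyaluronan-binding protein, rose (log2 change 2.37), and MYC, the growth regulator, fell (-0.63).

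Of 3 tested antagonists outside the members, secreted or on the membrane, APCDD1 and TRABD2A rose and NOTUM (0.11) did not pass. Of all tested genes, 23.9% were higher and 23.6% lower. TRABD2A and NOTUM were named after their values were seen. APCDD1, a membrane inhibitor that is also a beta-catenin target, averaged 0.436 ± 0.0785 CPM in the knockout and 0.0789 ± 0.0256 CPM in the wild-type (SD, n = 4 each, log2 change 2.41, edgeR adjusted p = 1.56e-05). That change rests on 85 counts over the knockout group and 14 over the wild-type group, near the limit of detection. The other 12 matched genes of this list, among them WIF1, SFRP2 and DKK4 with no count in any sample, were too low to be tested.

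In the list of the cytoplasmic relay, which also holds the surface glypicans GPC3 and GPC4, 7 of 23 tested genes rose, 7 fell and 9 did not pass. These shares were not far from the 23.9% and 23.6% of all tested genes. GPC4, a surface glypican that presents WNTs, averaged 18.2 ± 0.888 CPM in the knockout and 3.21 ± 0.251 CPM in the wild-type (SD, n = 4 each, log2 change 2.50, edgeR adjusted p = 1.80e-15). APC2, a relative of APC, averaged 2.29 ± 0.391 and 6.87 ± 1.35 CPM (SD, n = 4 each, log2 change -1.58, edgeR adjusted p = 4.80e-08), and AMER1, which brings APC and AXIN together, fell with a log2 change of -0.53. Of 15 tested nuclear partners, 4 rose, 7 fell and 4 did not pass. The share higher was near the 23.9% of all tested genes, and the share lower was above their 23.6%. The corepressor TLE1 rose (log2 change 0.51) while its relative TLE2 (-1.73) and the beta-catenin coactivator BCL9 (-0.56) fell.

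Of 24 tested genes of planar polarity and other branches without beta-catenin, 6 rose, 10 fell and 8 did not pass, with a median log2 change of -0.10. The share higher was again near the 23.9% of all tested genes, and the share lower was above their 23.6%. The calcium-responsive kinases CAMK2D and PRKCA fell, with log2 changes of -1.57 and -0.95, or -0.95 and -0.98 relative to their neighbours. Named after their values were seen, the planar polarity effector FUZ (-2.68) and the adhesion molecule MCAM (-1.93), a receptor for WNT5A, also fell. DAAM1, a formin that links Dishevelled to actin, averaged 31.6 ± 2.12 CPM in the knockout and 16.6 ± 1.10 CPM in the wild-type (SD, n = 4 each, log2 change 0.93, edgeR adjusted p = 1.49e-10), and its relative DAAM2 rose likewise (log2 change 0.98).

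**Figure D4:**
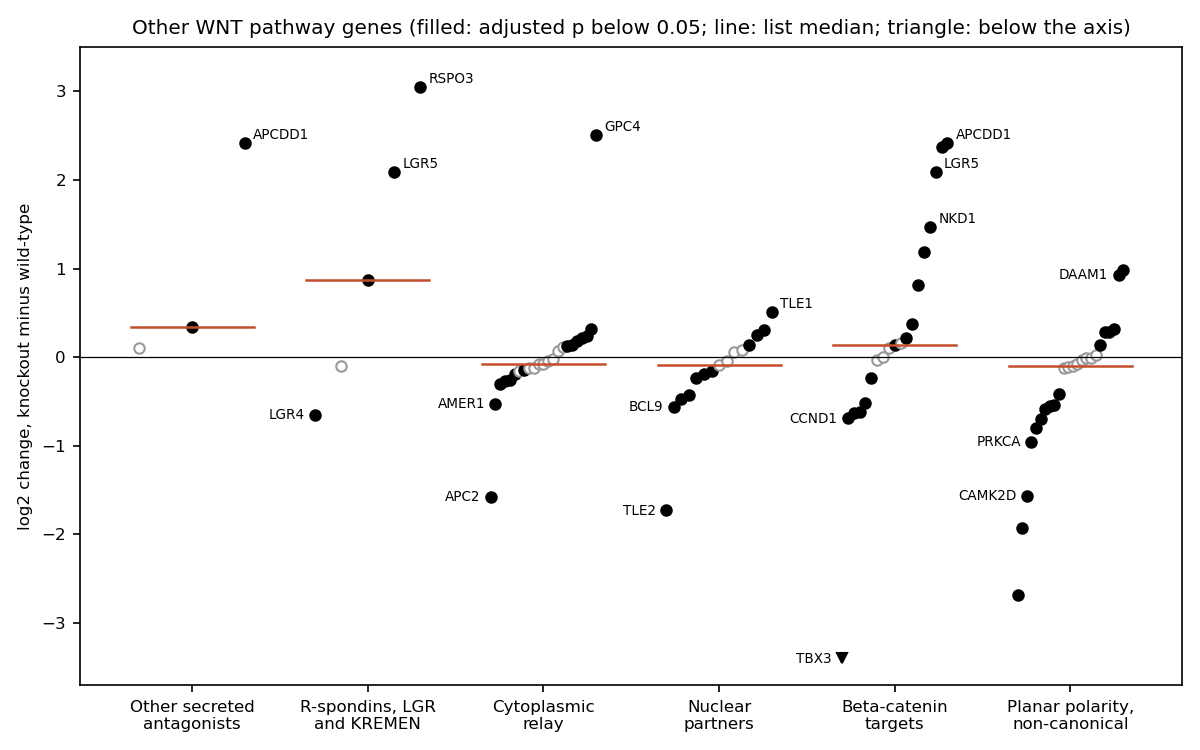
Log2 change (knockout minus wild-type, vertical axis) of each tested gene in lists of other WNT pathway genes, with the list median as a line and filled points for adjusted p below 0.05. The triangle marks TBX3, which lies below the axis. Of the labelled genes, RSPO3 (3.04), GPC4 (2.50), APCDD1 (2.41) and LGR5 (2.09) lie at the top, RSPO3 and APCDD1 on few counts. Genes of every list except the one labelled other secreted antagonists lie below 0 as well as above it.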

How the data were processed

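Counts per Ensembl gene in 4 knockout and 4 wild-type samples were taken as the authors deposited them. Per the submitters' processing notes, reads were handled on hg38 with featureCounts and STAR 2.6.0c, and the same notes list Subread 1.6.2, FastQC 0.11.7 and DESeq2 1.23.10. The annotation release and strand setting are not given in the sources used here. The deposited variance-stabilized values (8 columns) were not used.

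Groups and replicate numbers (1, 2, 3 and 5) came from the sample labels. Knockout was compared with wild-type in R 4.3.3 with edgeR 4.0.16 (filterByExpr, TMM scaling, robust quasi-likelihood test, group as the single term), with Benjamini-Hochberg adjustment over all 19877 tested genes and a threshold of 0.05. Each adjusted p comes from that test unless another is named. CPM use TMM factors, so 1 count stands for 0.0198 to 0.0250 CPM. Where samples are not separate cultures, p-values measure technical spread. Chi-square per degree of freedom between replicates was 3.41 to 18.4, so none were duplicates. Deviations from group means correlated at 0.307, 0.126, 0.116 and 0.325 between same-numbered samples over 15030 genes. The numbers, shared in the labels, were therefore taken to pair the samples. The main fit did not use this pairing, so its p-values and its counts of calls are unpaired. A fit that added the pairing (the replicate block below) called 10472 genes in place of 9458. It kept all 24 member calls and gained DKK1 as lower.

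Symbols matched 60333 of 60646 genes, and GENCODE 29 on GRCh38 gave coordinates and exon lengths. Relative values refit each gene with the median change of its 40 nearest tested genes as an offset. Alternatives were other scalings (RLE, upper quartile, library totals), other filters on low counts, DESeq2 1.42.0, the replicate block, glmTreat, and leaving out each sample. Per-sample values are given for members that passed with a log2 change of at least 0.5 in size and 0.5 CPM in a group, for the feedback genes, and for members at 0 in 1 group. From each other list, up to 3 called genes with the smallest adjusted p among those with a log2 change of at least 0.5 in size were named. The members and lists were chosen with earlier results of these data known. In simulated counts, 67, 67 and 66 of 19020 genes were changed by 1.5-, 2- and 4-fold, and the procedure recovered most of them. Of its 211 calls there, 9.48% were false, above the threshold of 0.05. Far fewer genes were changed there than the 47.6% called here, so that share cannot be carried over to these counts. The false share among the calls given here is not known, and calls close to 0.05 are the least certain.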

Additional observations from a re-analysis of the deposited data

Results flagged for a closer look

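In a few members 1 sample stood apart from the other 3 of its group, with a gap to its nearest neighbour, as a share of the group's range, above Dixon's 95% critical value for 4 samples. Among 40 member and group pairs examined, about 1 in 20 would be marked by chance. Knockout replicate 5 was high for WNT5A (25.5 CPM against 20.7 to 21.2 in the other knockout samples, share of the range 0.895) and low for DKK1 (278 CPM against 334 to 337, share 0.949). The remaining pairs rest on 1 or 2 counts. WNT7A had 1 count in knockout replicate 5 and 2 in each other knockout sample (share 0.942), and WNT1 had 2 counts in wild-type replicate 1 and 0 in the other wild-type samples (share 1).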

How the results depend on the processing

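The number of WNT members called, 24, was 20 to 24 when each sample was left out in turn (12 to 14 higher, 8 to 10 lower), and all genes called ran from 8463 to 9606 (4210 to 4959 higher, 4253 to 4647 lower). For the other pathway genes 24 to 29 were higher and 28 to 32 lower. Testing against a fold of 1.2 (glmTreat) left 4646 genes called (2496 higher, 2150 lower), 16 members, 6 of them lower, and 12 other pathway genes higher. With upper-quartile scaling 6021 of all genes were higher and 3705 lower, with library totals 5905 and 3744, against 4759 and 4699. With no filter beyond 1 count 26 members passed, FZD2 being lost and DKK1, SFRP1 and RNF43 gained. DESeq2 and RLE scaling each kept the same 24 member calls, and glmTreat kept 16. With the replicate block 25 members passed, the same 24 and DKK1, and no other member's call changed. Relative to neighbours the call of LRP6 (-0.29) reversed, and calls of CTNNB1, APC and RYK were lost. WNT5B (-0.37), DKK1 (-0.30) and TCF7L2 (-0.16), which had not passed in the main fit, then passed as lower. The 16 other pathway genes named by the stated rule kept their calls under every setting that tested them. APCDD1, LGR5, RSPO3 and TLE2 were left out by the filter at a mean log2 CPM of 1, and genes named after their values were seen were not rerun. The 12 members not tested had few or no counts, and whether greater depth would show a difference was not tested. Leaving out each sample cost calls of APC, FZD2, FZD3, LRP6 and TCF7, and of no other member.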
